A study of Mus musculus with 4 samples.

Results

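The 9 genes of heme synthesis and iron uptake described here were measured in RNA from long-term haematopoietic stem cells (LT-HSCs) of Fam122a knockout (KO) and wild-type (WT) mice. They were chosen by name: Alas1, Alas2, Alad, Uros, Urod, Cpox, Ppox and Fech, enzymes of the heme pathway, and Tfrc, the transferrin receptor. All 9 were found by symbol among the 51912 Ensembl genes in each file, and not every step of the pathway is among them. LT-HSCs are mostly quiescent marrow cells that can renew all blood lineages for life, and the protein FAM122A inhibits PP2A, a phosphatase. The tested mice lacked Fam122a (group Fam122a KO, 2 libraries) and were set against mice labelled WT (2 libraries), all of strain C57BL/6 and 8 to 12 weeks old. Each library pooled sorted cells from 3 animals, with the gate LSK CD34- Flk2- (lineage-negative, Sca1-positive, Kit-positive cells without CD34 and Flk2). The labels name no other allele or agent, and how the deletion was made is not given in the sources used here.

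Heme is made in a chain of enzyme steps that begins and ends in the mitochondrion and runs through the cytosol in between. Every nucleated cell makes some heme, but red cell precursors make far more of it, for haemoglobin. They take up the iron through the transferrin receptor and use an erythroid form of the entry enzyme, ALAS2, in place of the ubiquitous ALAS1. Erythroid transcription factors such as GATA1 drive Alas2 and raise the later enzymes as red cells mature. Iron also acts on 2 of the members after transcription: iron regulatory proteins bind hairpins in their RNA, which hold back translation of Alas2 and protect Tfrc RNA from decay when iron is scarce.

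These hairpins, the iron-responsive elements, are shown because they set Alas2 and Tfrc apart from the other 7 members. They were sought in GENCODE M21 coding transcripts (GRCm38) as C, any 5 bases, CAGTG, any base and 5 bases that pair with the earlier 5, G-T pairs allowed, on the RNA strand. Of 21901 protein-coding genes, 294 (1.34%) held a match. Alas2 and Tfrc were the only members that did, Alas2 with 1 in its 5′ UTR and Tfrc with 4 in the 3′ UTR of its last exon, exon 19. Each is written as 27 bases, 5′ to 3′, with the loop in capitals. The Alas2 element lay in exon 1 at chrX:150547459-150547485 (plus strand), and the Tfrc elements at chr16:32631220-32631246, chr16:32631599-32631625, chr16:32631664-32631690 and chr16:32631711-32631737 (plus strand).
Alas2: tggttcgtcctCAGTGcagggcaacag
Tfrc element 1: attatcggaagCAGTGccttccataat
Tfrc element 2: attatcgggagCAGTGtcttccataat
Tfrc element 3: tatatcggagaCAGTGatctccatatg
Tfrc element 4: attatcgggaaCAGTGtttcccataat

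The 250 bases before each RNA start were also read, from RefSeq (GRCm38.p6), for 8 members that had a promoter entry, with 12 starts in all. They were searched on both strands for 4 GATA motifs, AGATAA or AGATAG as well as TGATAA or TGATAG. A match stood in 3 of the 12 windows (25%), close to the 26.5% of 32851 windows over all genes. The 3 windows with a match are shown with the matches in capitals, read on the gene's own strand. They belong to Alas2, to Cpox and to the further downstream of 2 Uros starts. A link between these matches and the differences below was not tested. Alas2 (chrX:150547167-150547416, plus strand) had TTATCT beginning 86 bases before its start. Cpox (chr16:58669958-58670207, plus strand) had CTATCT beginning 91 bases before its start and, overlapping it by a base, TTATCA beginning 86 bases before. Uros (chr7:133702501-133702750, minus strand) had CTATCT beginning 205 bases before that start and TTATCA beginning 68 bases before, and its other start had none. No match was found in the windows of Alas1, Alad, Urod, Ppox and Tfrc.
Alas2: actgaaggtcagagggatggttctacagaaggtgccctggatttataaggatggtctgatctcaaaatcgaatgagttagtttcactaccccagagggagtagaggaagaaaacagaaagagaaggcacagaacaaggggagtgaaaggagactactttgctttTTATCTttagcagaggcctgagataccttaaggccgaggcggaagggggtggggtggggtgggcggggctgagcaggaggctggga
Cpox: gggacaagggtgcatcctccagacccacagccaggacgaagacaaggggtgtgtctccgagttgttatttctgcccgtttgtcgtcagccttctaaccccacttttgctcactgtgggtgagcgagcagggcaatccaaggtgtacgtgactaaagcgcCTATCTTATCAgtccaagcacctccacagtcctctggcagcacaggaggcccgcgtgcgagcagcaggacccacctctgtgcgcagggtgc
Uros: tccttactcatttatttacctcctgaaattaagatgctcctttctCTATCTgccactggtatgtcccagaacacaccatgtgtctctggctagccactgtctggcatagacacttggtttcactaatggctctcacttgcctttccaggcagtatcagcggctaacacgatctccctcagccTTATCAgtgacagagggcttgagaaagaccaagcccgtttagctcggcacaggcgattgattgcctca

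The second WT library differed widely from the remaining 3 and held far lower levels of ribosomal protein and globin genes, so it is shown separately throughout. The unit, FPKM (fragments normalised for gene length and depth), is inferred from the values. Low values of single-exon genes fell on steps that imply depths of 6770000 and 5920000 fragments in KO replicates 1 and 2, and 4250000 and 2500000 fragments in WT replicates 1 and 2. Log2 values correlated across 20434 genes at r = 0.97 between the KO libraries, at 0.85 and 0.84 between each KO library and WT replicate 1, and at 0.06 between the WT libraries. The median of 79 ribosomal protein genes was 357 and 299.8 FPKM in KO replicates 1 and 2, and 436 and 13.1 FPKM in WT replicates 1 and 2. Loci with MSTRG identifiers, which name no gene, held 1.74% and 1.81% of the summed FPKM in KO and 9.14% and 53.9% in WT. Fam122a was listed at 0 in both KO libraries, and at 18.4 and 7.46 FPKM in WT replicates 1 and 2. Of the genes of the sort gate, Ly6a (Sca1) was at 229.9 and 205 FPKM in KO, and at 201 and 0 FPKM in WT replicates 1 and 2. Kit was at 93.5 and 129 FPKM in KO, and at 81.7 and 2.26 FPKM in WT. Cd34, which the gate should exclude at the cell surface, was at 87.7 and 62.1 FPKM in KO, and at 179 and 18.2 FPKM in WT. Flt3 (Flk2), the other marker the gate excludes, was at 36.2 and 24.7 FPKM in KO, and at 26.2 and 16.1 FPKM in WT.

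All 9 genes were higher in both Fam122a KO libraries than in WT replicate 1, but no difference passed the test. Among all genes tested, 40.1% lay higher in both KO libraries than in WT replicate 1, and 48.3% of those with an average of the group means of at least 5 FPKM. The mean of the KO libraries exceeded WT replicate 1 by 1.16-fold for Alas1 up to 3.47-fold for Cpox, with a median of 2.08-fold over the 9 genes. It was over 2-fold higher for 5 of the 9 (Alas2, Cpox, Ppox, Fech and Tfrc), against 11.2% of all genes tested. The test was limma on log2(FPKM + 1), fitted across 16580 genes, in which the single WT library was assumed to vary like the KO pair. With Benjamini-Hochberg adjustment at 0.05, limma called 0 of the 9 genes, whose adjusted p ran over 0.143 to 0.495. Over all genes it called 0.814% higher and 12.9% lower in KO. At an unadjusted p under 0.05 it took 0 of the 9 and 11.9% of all genes as higher. With a filter of 1 FPKM in at least 2 libraries it took 6 of the 9 and 2436 of 13848 genes. That filter can keep a gene found only in KO but drops one found only in WT replicate 1. A filter of 5 FPKM gave 4 (1916 of 11321 genes) and equal protein-coding sums 3 (2826 of 16348). Quantile normalization gave 1 (3826 of 16580), as did subtraction of the WT replicate 2 profile (3170 of 14485). Other settings of the comparison with WT replicate 1 that kept this library gave 0.

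**Figure D1:**
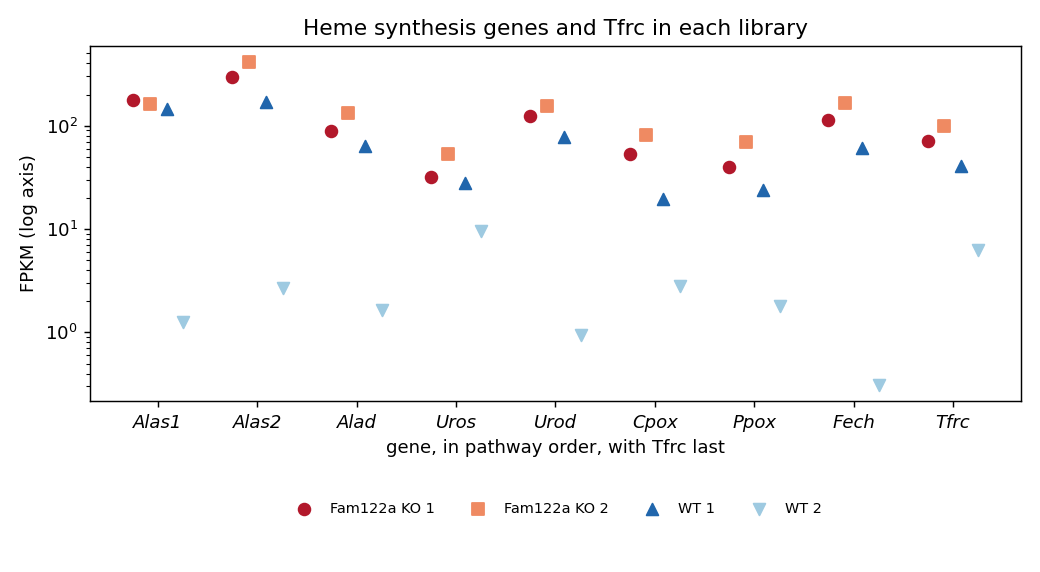
FPKM of the 9 genes on a log axis in Fam122a KO replicates 1 and 2 and WT replicates 1 and 2, 1 point per library. Both KO points lie above WT replicate 1 for every gene, and WT replicate 2 lies between 0.31 and 9.47 FPKM.

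Alas2 encodes the erythroid form of the entry enzyme, which joins glycine and succinyl-CoA and sets the rate of heme synthesis in red cell precursors. It was at 299 and 412 FPKM in KO replicates 1 and 2, against 169 FPKM in WT replicate 1. It was the most abundant member in these 3 libraries, and both KO libraries lay clear above the WT library. The log2 difference was 1.05 (SE 0.30), with a limma adjusted p = 0.178. Of its exonic length, 12.9% overlaps Apex2 on the other strand. The kit does not mark strand, but Apex2 itself was only at 8.71 and 10.9 FPKM in KO and 9 FPKM in WT replicate 1.

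Alas1 encodes the ubiquitous form of the same step, which most tissues use and which heme itself represses. It was at 178 and 162 FPKM in KO, against 146 FPKM in WT replicate 1. Its log2 difference of 0.22 (SE 0.10, limma adjusted p = 0.297) was the smallest of the 9. Alas1 was also the only member that was lower in KO replicate 2 than in KO replicate 1, while the other 8 were 1.24-fold to 1.73-fold higher there. Over all genes tested, 49.8% were higher in KO replicate 2.

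The ratio of Alas2 to Alas1 within a library does not depend on how libraries are scaled. It was 1.68 and 2.55 in KO replicates 1 and 2, against 1.16 in WT replicate 1. Both KO libraries thus carried more of the erythroid form relative to the ubiquitous form. On the log2 scale the ratio was 0.75 and 1.35 in KO and 0.21 in WT replicate 1, a difference of 0.84. With 2 libraries against 1 no permutation p can fall below 0.333, and no test was run on the ratio. The KO libraries lay farther apart from each other than the lower of them lay from WT replicate 1. In WT replicate 2 the ratio was 2.13, from 2.68 and 1.26 FPKM, or at most about 15 and 19 fragments.

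The cytosolic steps came with intermediate differences. ALAD joins 2 molecules of aminolevulinic acid into porphobilinogen, UROS closes the porphyrin ring and UROD trims its side chains. Alad was at 88.8 and 132 FPKM in KO, against 63.3 FPKM in WT replicate 1 (log2 difference 0.77, SE 0.36). Urod was at 125 and 155 FPKM in KO, against 77.3 FPKM in WT replicate 1 (0.84, SE 0.20). For both genes the KO libraries lay above the WT library, but for Alad they lay farther from each other than the lower of them lay from it. Uros was at 31.6 and 53.4 FPKM in KO, against 28.0 FPKM in WT replicate 1 (0.54, SE 0.47). Its KO replicate 1 stood only 1.13-fold above WT replicate 1, less than any other member in that library, and KO replicate 2 stood 1.91-fold above it.

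At the mitochondrial end of the pathway Cpox had the largest difference of the 9, while Ppox and Fech lay within their SE of Alas2 and Tfrc. CPOX and PPOX carry out successive oxidations of the porphyrinogen, and FECH inserts iron to give heme. Cpox was at 53.4 and 81.2 FPKM in KO, against 19.4 FPKM in WT replicate 1. It was the lowest member in WT replicate 1 and the seventh of 9 by the KO mean. Its log2 difference was 1.71 (SE 0.38) with a limma adjusted p = 0.143, the smallest p of the 9. Ppox was at 40.2 and 69.5 FPKM in KO, against 24.1 FPKM in WT replicate 1 (1.10, SE 0.49). It shares 17.5% of its exonic length with B4galt3 on the other strand, which was at 33.4 and 32.0 FPKM in KO and 20 FPKM in WT replicate 1, so its values are less certain. Fech was at 112 and 167 FPKM in KO, against 61.3 FPKM in WT replicate 1 (1.15, SE 0.36).

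Tfrc, which brings transferrin-bound iron into the cell, was at 70.5 and 98.2 FPKM in KO, against 40.6 FPKM in WT replicate 1. Both KO libraries stood apart from the WT library, at 1.74-fold and 2.42-fold its level. The log2 difference was 1.02 (SE 0.30, limma adjusted p = 0.187), close to that of Alas2 and Fech.

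**Figure D2:**
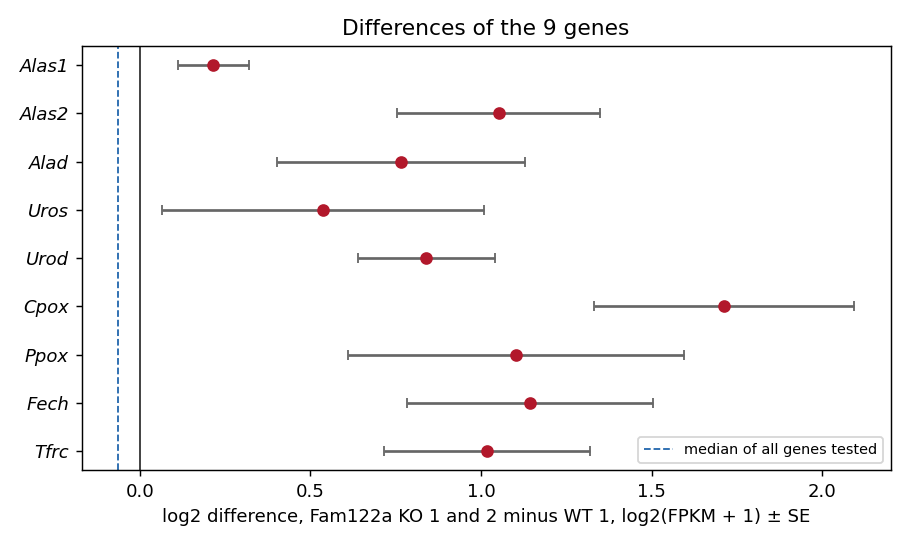
Log2 differences between Fam122a KO replicates 1 and 2 and WT replicate 1 on the log2(FPKM + 1) scale, with the SE from limma as bars, and the median of all genes tested as a dashed line. All 9 points lie right of 0, from 0.22 for Alas1 to 1.71 for Cpox, and the dashed line lies at -0.06.

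By level, the order of the KO means was Alas2 (356 ± 80.2 FPKM), Alas1 (169.6 ± 11.4 FPKM), Urod (139.9 ± 21.1 FPKM), Fech (139.5 ± 38.5 FPKM), Alad (111 ± 30.9 FPKM), Tfrc (84.4 ± 19.5 FPKM), Cpox (67.3 ± 19.7 FPKM), Ppox (54.9 ± 20.7 FPKM) and Uros (42.5 ± 15.5 FPKM; SD, n = 2 each). Alas2 stood clear of Alas1 in both KO libraries. From Urod downwards the KO values of each neighbour in this order overlapped. In WT replicate 1 the same 3 genes led, and the last 3 were Uros, Ppox and Cpox.

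The direction held under each scaling of the libraries, except for Alas1 and Uros in single libraries. Scaled by the median ratio, which moved the median of all genes to -0.25, 7 of 9 members kept both KO libraries above WT replicate 1, against 32.2% of all genes. The exceptions were Alas1 at 169 and 155 FPKM in KO against 159 FPKM in WT replicate 1, and Uros at 30.1 and 51.2 FPKM in KO against 30.6 FPKM in WT replicate 1. The log2 difference of Alas1 was then 0.02 and that of Alas2 0.86. With equal protein-coding sums Alas1 was at 0.42, with a limma adjusted p = 0.122, the smallest of the 9 in that setting, and Alas2 was at 1.25. With quantile normalization and with equal protein-coding sums all 9 had both KO libraries above WT replicate 1, against 51.2% and 48.3% of all genes.

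In WT replicate 2 the 9 genes were at 0.31 (Fech) to 9.47 FPKM (Uros), or 0.51% to 33.8% of their level in WT replicate 1. The rank order differed: Uros, Tfrc and Cpox led there, ahead of Alas2. At most about 5.6 to 93.4 fragments stand behind these values, against at most 397 to 3677 in WT replicate 1. With all 4 libraries in the fit, limma passed 0 of 9 members and 0 of 20433 genes, that is 0% called higher. At an unadjusted p under 0.05 it took 0 members and 0.577% of all genes as higher. All 9 genes were higher in both KO libraries than in both WT libraries, as were 27.1% of all genes. The log2 differences were 1.27 (Uros) to 3.93 (Fech) with SEs of 1.10 to 2.11.

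Red cell markers lay higher in KO alongside the members. Of 17 erythroid markers measured, none of which passed limma, 16 were higher in both KO libraries than in WT replicate 1, and the exception was Car1. Among all genes tested, 40.1% were higher in both KO libraries. The median log2 difference of the 17 markers was 1.33. The sum of 4 globin genes was 59110 and 78490 FPKM in KO replicates 1 and 2, against 51294 FPKM in WT replicate 1. The other 13 markers, such as the anion exchanger gene Slc4a1, summed to 755 and 1383 FPKM in KO and 464 FPKM in WT replicate 1. In WT replicate 2 the sums were 176 and 381 FPKM, and Epor and Epb42 were at 0. Most of the 381 FPKM came from Rhd alone, at 312 FPKM there against 45.5 FPKM in WT replicate 1. Next came Rhag at 27.7 FPKM and Sptb at 18.5 FPKM. The globin sum and the other sum were higher in KO replicate 2 than in KO replicate 1, by 1.33-fold and 1.83-fold, as were all members but Alas1. In these bulk samples more cells of a type and more RNA per cell cannot be told apart, and the part of red cell RNA in the members' differences was not tested.

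Set against these sums within each library, the members separated, and the picture turned on which markers were summed. Relative to the globins, 7 of the 9 were higher in both KO libraries, with log2 differences of the ratio from 0.37 for Alad to 1.35 for Cpox. The KO libraries lay on both sides of WT replicate 1 for Uros (0.14) and Alas1 (-0.19). Relative to the 13 other erythroid markers, Cpox alone was higher in both KO libraries (0.62), while Urod, Alad, Uros and Alas1 were lower in both (-0.29, -0.36, -0.59 and -0.92). Fech, Ppox, Alas2 and Tfrc had KO libraries on both sides, with differences of 0.02, -0.01, -0.08 and -0.11. Alas1 made up 23.5% and 11.7% of that marker sum in KO and 31.4% in WT replicate 1, while Alas2 made up 39.6% and 29.8% in KO and 36.4% in WT replicate 1. Car1, the marker that was not higher in both KO libraries, was at 94.2 and 186 FPKM in KO and 162 FPKM in WT replicate 1. Without Car1 the sum was 661 and 1197 FPKM in KO and 302 FPKM in WT replicate 1, and 8 of the 9 members were lower relative to it in both KO libraries. The differences were then -0.40 for Fech, -0.43 for Ppox, -0.50 for Alas2, -0.52 for Tfrc and -1.34 for Alas1, and Cpox stayed above at 0.20. These ratios, with and without Car1, were chosen after the values were seen and have no test. The shares of all genes that lie higher or lower relative to each sum were not computed. In the KO mean the globin sum was 1.34-fold, the other sum 2.31-fold and the sum without Car1 3.08-fold its WT replicate 1 level. A gene that rose less than a sum lies lower relative to it, so the counts depend on the sum used.

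**Figure D3:**
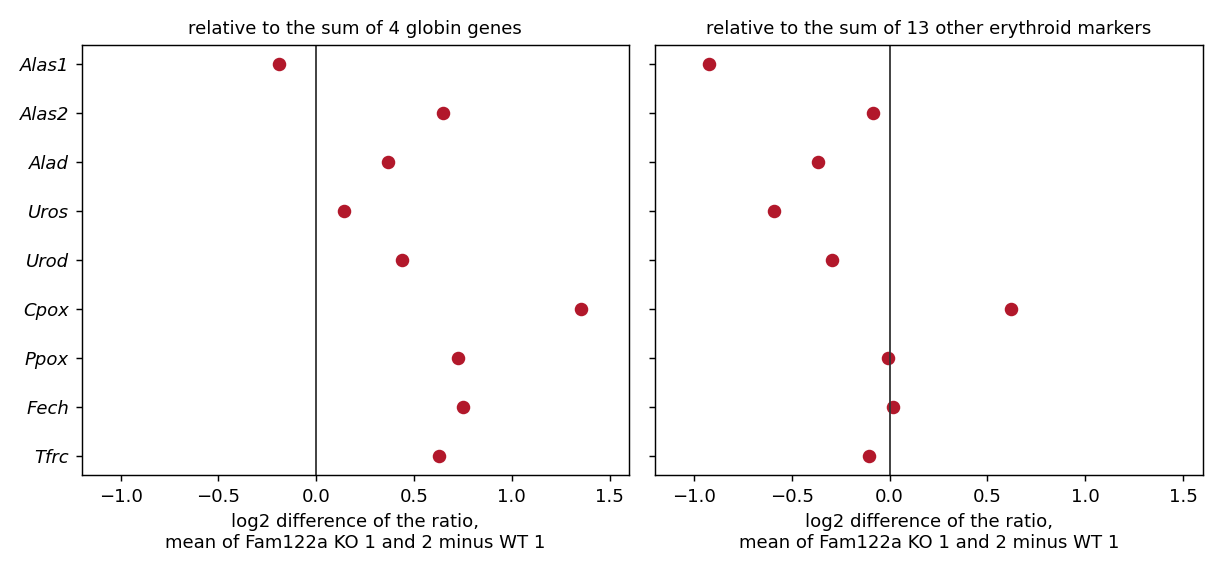
Log2 difference between the mean of Fam122a KO replicates 1 and 2 and WT replicate 1 of each gene's ratio to the sum of 4 globin genes (left) and of 13 other erythroid markers, Car1 included (right). Alas1 lies lowest in both panels (-0.19 and -0.92) and Cpox highest (1.35 and 0.62).

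The genes whose pattern over the 4 libraries was most like that of Alas2, by Euclidean distance in centred log2(FPKM + 1) among 10220 other genes at a mean of 10 FPKM or more, were Rcc2 (distance 0.11), Fech (0.14), Csnk1g2 (0.16), Ctbp1 (0.16) and Hist1h1e (0.19). Fech, the last enzyme, was thus the second closest of all, at 112 and 167 FPKM in KO and 61.3 and 0.31 FPKM in WT. Urod ranked 26 and Alas1 271, while Tfrc ranked 3355 and Uros 4796. These 4 points include WT replicate 2, whose low values weigh heavily in the distance.

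Transport around the mitochondrion mostly lay higher in KO. Of 14 genes for mitochondrial iron and porphyrin transport and iron-sulfur cluster assembly, 0 passed limma in either direction (median log2 difference 0.70). In both KO libraries 11 of the 14 were higher than in WT replicate 1, against 40.1% of all genes tested. The 3 most abundant differed: Slc25a39, a mitochondrial glutathione carrier, was at 155 and 173 FPKM in KO and 91.6 FPKM in WT replicate 1. Tmem14c, which moves porphyrinogen into the matrix, was at 199 and 238 FPKM in KO and 194 FPKM in WT replicate 1, and Iscu, the scaffold for iron-sulfur clusters, was at 91.9 and 111 FPKM in KO and 99.2 FPKM in WT replicate 1. Slc25a37 (mitoferrin 1), the iron importer of erythroid mitochondria, was chosen after its values were seen. It was at 31.6 and 38.0 FPKM in KO, against 13.4 FPKM in WT replicate 1.

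Iron uptake, storage and sensing were more mixed. Of 10 uptake and trafficking genes 0 passed (median 0.19, or 0.02 scaled by the median ratio). In both KO libraries 7 of the 10 were higher, against 40.1% of all genes tested. Snx3, which recycles the transferrin receptor, was at 159 and 158 FPKM in KO and 155 FPKM in WT replicate 1. Pcbp1, an iron chaperone, was at 151 and 176 FPKM in KO and 126 FPKM in WT replicate 1. Ncoa4, which delivers ferritin for breakdown, was lower at 110 and 107 FPKM in KO, against 135 FPKM in WT replicate 1. Of 6 genes for iron sensing, storage and export 0 passed. In both KO libraries 2 were higher, against 40.1% of all genes tested, and 2 were lower, for which no share over all genes is given. The median of the 6 was -0.09. It turned to 0.11 with equal protein-coding sums, 0.24 with quantile normalization and 0.04 after subtraction of the WT replicate 2 profile. The ferritin subunit genes Fth1 (2111 and 2362 FPKM in KO, 2315 FPKM in WT replicate 1) and Ftl1 (2368 and 1623 FPKM in KO, 2150 FPKM in WT replicate 1) had KO libraries on both sides of the WT library. Slc40a1, the iron exporter ferroportin, was at 55.0 and 87.3 FPKM in KO and 52.4 FPKM in WT replicate 1. Aco1 and Ireb2, which encode the iron regulatory proteins that bind the elements shown above, were chosen after their values were seen. Aco1 was at 12.9 and 14.5 FPKM in KO and 8.75 FPKM in WT replicate 1, and Ireb2 at 9.75 and 11.4 FPKM in KO and 13.6 FPKM in WT replicate 1.

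Among 8 genes for heme breakdown and transport, Flvcr2 was the only gene of these lists to pass, and it fell in KO, as did 12.9% of all genes tested. It encodes a membrane transporter of the FLVCR family and was at 0.51 and 0.59 FPKM in KO, against 2.50 FPKM in WT replicate 1 (log2 difference -1.18, SE 0.06, limma adjusted p = 0.0298). Its span is 19.1 times its exonic length and it reached 31.0 FPKM in WT replicate 2. After subtraction of the scaled WT replicate 2 profile from WT replicate 1 and under both stricter filters (1 FPKM in at least 2 libraries, or an average of 5 FPKM) it was no longer tested, and with a pseudocount of 0.1 or quantile normalization it did not pass. With all 4 libraries its limma adjusted p was 0.418. The other 7 did not pass, and 6 were higher in both KO libraries, against 40.1% of all genes tested. Blvrb, biliverdin reductase B, was at 132 and 203 FPKM in KO and 92.6 FPKM in WT replicate 1. Slc48a1, a heme transporter of lysosomes, was at 89.0 and 98.8 FPKM in KO and 63.0 FPKM in WT replicate 1, and the heme oxygenase gene Hmox2 was at 85.5 and 76.3 FPKM in KO and 73.7 FPKM in WT replicate 1.

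Regulators of the erythroid programme lay higher in KO as well. Of 10 genes, of which Gata1, Klf1 and Epor also stand among the erythroid markers, 0 passed (median 0.79). In both KO libraries 9 of the 10 were higher, against 40.1% of all genes tested. Klf1, an erythroid transcription factor, was at 49.9 and 94.7 FPKM in KO and 26.4 FPKM in WT replicate 1. Nfe2, a factor of the erythroid and platelet lineages, was at 300.5 and 313 FPKM in KO and 241 FPKM in WT replicate 1, while Cited2, a transcriptional co-regulator, was at 55.4 and 54.8 FPKM in KO and 55.5 FPKM in WT replicate 1. Gata1, chosen after its values were seen, was at 37.3 and 51.9 FPKM in KO and 16.9 FPKM in WT replicate 1.

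**Figure D4:**
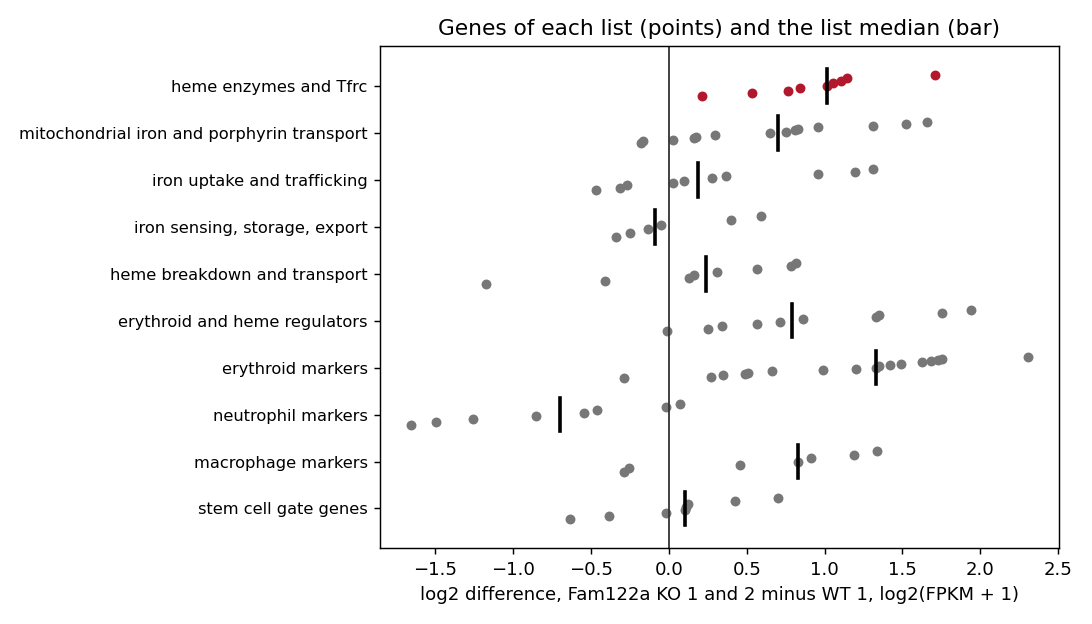
Log2 differences between Fam122a KO replicates 1 and 2 and WT replicate 1 for the genes of 10 lists, 1 point per tested gene with the list median as a bar. The heme enzymes and Tfrc have a median of 1.02, the erythroid markers 1.33 and the neutrophil markers -0.70.

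Markers of other blood cell types differed in level too, and 0 of them passed limma as described above. Where WT replicate 1 was kept, 2 B cell markers were called higher with a pseudocount of 5 or with either of the stricter filters. With no filter, 2 neutrophil markers were called lower. Against WT replicate 2 in place of WT replicate 1, neutrophil, macrophage and B cell markers also passed, mostly as higher. The median log2 difference there was 7.91 for neutrophil, 4.05 for macrophage and 6.52 for B cell markers. The 8 neutrophil markers summed to 70822 and 61911 FPKM in KO, against 165338 FPKM in WT replicate 1. Of the 8, 7 were lower in both KO libraries, a count whose share over all genes is not given here. A log2 difference above 0 was found for 1 of the 8 neutrophil markers, against 47.0% of all genes tested. The 8 neutrophil markers held 8.51% and 7.59% of the summed FPKM in KO and 15.8% in WT replicate 1. The 7 macrophage markers, of cells that recycle iron and heme, summed to 252 and 275 FPKM in KO and 200.5 FPKM in WT replicate 1. The 8 B cell markers summed to 4099 and 6540 FPKM in KO and 5835 FPKM in WT replicate 1. In WT replicate 2 the 3 sums were 331, 18.3 and 36.0 FPKM. The 8 stem cell gate genes summed to 475 and 480.1 FPKM in KO, against 465 FPKM in WT replicate 1, and to 345 FPKM in WT replicate 2, where Ly6a and Procr were at 0. The part of these cell types in the members' differences was not tested.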

How the data were processed

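RNA of sorted LT-HSCs went into 4 SMART-Seq v4 libraries (an unstranded full-length kit), per the labels' protocols. The authors deposited 1 value per feature with no header, taken as FPKM from the values. The tools HISAT2 2.1.0, STAR 2.7.1a and bcl2fastq and the builds mm10 and GRCm38.p5 appear in the submitters' processing notes. Their roles, and which tool made the values, are not stated there. Of 87703 features per file, 35791 MSTRG loci stayed out of the tests. Symbols and exon models came from GENCODE M21. Depths were estimated as the fragment total at which 1834 to 4055 low single-exon genes per library came closest to whole fragments. Between 82.0% and 88.3% of them lay within 0.1 of one, so these depths are estimates. Fragments behind a member use its full exonic length and are upper estimates.

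The test was limma 3.58.1 in R 4.3.3, its prior variance following mean expression, on log2(FPKM + 1), a scale that understates changes of low genes. Genes needed an average of the 2 group means of at least 1 FPKM, which all 9 members passed. P-values measure the spread between library pools and, without WT replicate 2, that of the KO pair. The limma fit was first tested on simulated data. Alternatives covered pseudocount, filter, scaling, subtraction of the WT replicate 2 profile (factor 0.138), the replicate block and libraries left out. The replicate numbers name pools and do not pair samples. The members and lists were chosen with earlier results of these data known. From each pathway list the text names genes that passed and the 3 of highest mean FPKM over both KO libraries and WT replicate 1, and says where it adds others. Of 18 erythroid markers listed, 17 were measured and 1 was not analysed here.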

Additional observations from a re-analysis of the deposited data

How the results depend on the processing

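In the comparison with WT replicate 1, 91 alternative tests of the 9 members kept their direction and their side of the threshold. The direction could not turn under the filters, the pseudocounts or the subtraction, since both KO libraries already lay above WT replicate 1. For the same reason the direction of the 18 values without one KO library, which have no test, was fixed in advance. Another 8 tests passed, as higher, against WT replicate 2 in place of WT replicate 1, where limma called 8 members and 7035 of 21932 genes higher and Uros did not pass (adjusted p = 0.0982). Against WT replicate 2 the Alas2 to Alas1 log2 ratio turned to -0.038 (0.84 against WT replicate 1), and without KO replicate 1 or 2 it was 1.14 and 0.54.

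Over all genes, the 135 called higher and 2132 called lower against WT replicate 1 moved with the processing. Counts higher and lower were 53 and 1160 with a pseudocount of 0.1, 25 and 196 with a filter of 1 FPKM in at least 2 libraries, 41 and 772 with a filter of 5 FPKM, 761 and 9265 with no filter, and 205 and 802 after the subtraction. The count higher was 211 with a pseudocount of 5 and 536 with quantile normalization. With all 4 libraries it was 0 in both directions. Leaving out 1 of the 4 libraries gave 0 to 7035 genes higher, 0 to 10109 lower and 0 to 8 members higher. The cause of these moves was not tested. Settings that leave 1 library a group gave no counts, and WT replicate 1 cannot be told apart from its group.

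With the replicate block, limma called 0 genes and 0 members with all 4 libraries (smallest adjusted p = 0.0726, against 0.309 with no block). The replicate numbers share no animals, and the deviations of same-numbered libraries correlated at 0.04, so the numbers pair nothing. The members' values in WT replicate 2 rest on at most 93.4 fragments each, and the part of depth in their low levels was not tested.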
